A study of Mus musculus with 2 samples.

Results

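The clustered protocadherins are cell-adhesion proteins encoded by 3 neighbouring gene clusters, Pcdha, Pcdhb and Pcdhg, on mouse chromosome 18. The family was taken as every protein-coding GENCODE gene of those clusters on GRCm38 (mm10), which gave 57 of 21938 protein-coding genes. They were 12 alternate Pcdha genes, 22 Pcdhb genes, 12 Pcdhga genes, 6 Pcdhgb genes and 5 C-type genes, Pcdhac1, Pcdhac2, Pcdhgc3, Pcdhgc4 and Pcdhgc5. Open chromatin was measured by DNase-seq, in which DNase I cuts DNA that is not wrapped in nucleosomes. The tissue was whole ovary of 2 female mice of the F1 hybrid B6CASTF1/J, 36 days old, with no treatment given in the labels. There was 1 library for each animal, named replicate 1 and replicate 2, and no other group.

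Each protocadherin of the Pcdha and Pcdhg clusters is made from its own variable exon, which has its own promoter and is spliced to constant exons shared by the whole cluster. The Pcdhb genes have no constant exons. In single neurons a small, largely random set of the alternate promoters is used, which gives each cell its own combination of surface proteins, while the C-type genes are used more regularly. Most of the promoters carry a conserved sequence element that binds CTCF, and loops held by CTCF and cohesin join them to enhancers. In cells that do not use them, the promoters are kept silent by DNA methylation and by repressors such as SMCHD1, SETDB1 and REST. Since the family is best known from the nervous system, the ovary shows it in a tissue where most cells are not neurons.

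Markers of granulosa cells, theca cells and neurons were open in most cases, as were 65.6% of all protein-coding genes, while oocyte markers were not. The lists are short, so the counts for granulosa cells, theca cells and neurons are not told apart from that share. Of 7 granulosa cell markers 6 had a promoter peak in both libraries, led by Foxl2 (4.66 ± 2.09, SD, n = 2), Inha (3.63 ± 1.31) and Hsd17b1 (2.67 ± 1.04), and Cyp19a1 had none. Of 6 theca and steroid cell markers 5 did, led by Nr5a1 (3.13 ± 1.66), Star (2.97 ± 1.18) and Lhcgr (2.31 ± 0.975), and Insl3 had a peak in replicate 1 alone. None of 6 oocyte markers, Bmp15, Ddx4 and Figla among them, had a promoter peak in either library. Of 8 neuron markers 6 did, led by Map2 (6.03 ± 3.52), Elavl4 (2.02 ± 0.736) and Tubb3 (1.91 ± 0.995), and Rbfox3 and Stmn2 had none. Of 3 glia markers only Mbp did (2.07 ± 1.24), and Gfap and Sox10 had none. These values come from the whole organ, so a promoter open in fewer cells and a promoter less open in each cell cannot be told apart. The part of nerve cells in the protocadherin peaks was not tested.

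Few of the protocadherin promoters were open. A promoter was called open if both libraries had a peak no further than 500 bp from a start site, and by this rule 10 of 57 members (17.5%) were open, where 65.6% of all protein-coding genes were. A further 7 members had a promoter peak in one library alone, 6 of them in replicate 2 and 1 in replicate 1, and 40 had none. The share went from subcluster to subcluster. It was 0 of 12 for the alternate Pcdha genes, 3 of 22 for Pcdhb, 1 of 12 for Pcdhga and 2 of 6 for Pcdhgb. Among the C-type genes 4 of 5 were open in both libraries and Pcdhgc5 was open in replicate 1 alone. No alternate Pcdha gene had a peak in either library, while no C-type gene was without one. With the shorter of the deposited peak lists of each library, 3 members kept a promoter peak in both libraries, and all were C-type genes (Pcdhac1, Pcdhac2 and Pcdhgc3). With the longer lists limited to peaks above the median value of their library, 3 members were open as well, here Pcdhgb6, Pcdhgc3 and Pcdhgc4.

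**Figure D1:**
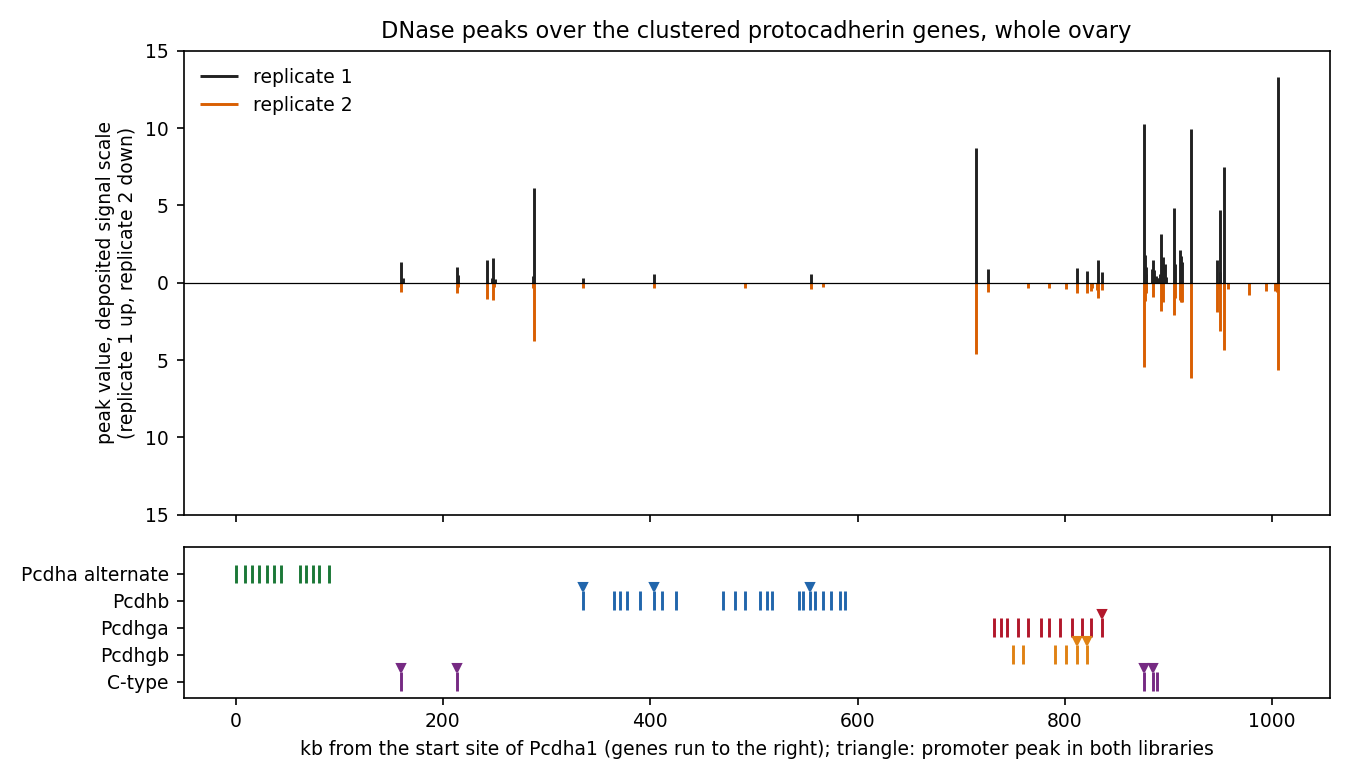
Peak values over the protocadherin clusters and 100 kb to each side. The horizontal axis is the distance from the start site of Pcdha1 in kb, bars point up for replicate 1 and down for replicate 2, and the lower panel marks the start site of each member by subcluster, with a triangle where the promoter had a peak in both libraries. No bar stands over the 12 alternate Pcdha genes at the left, and the tall bars lie mostly from Pcdhgc3 to the right end.

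Pcdhgc3, a C-type gene of the Pcdhg cluster, was the only member whose promoter value was above that of the typical open gene. The values are on the deposited signal scale, on which the median open coding promoter stood at 6.71 in replicate 1 and 3.61 in replicate 2. Pcdhgc3 had 10.3 in replicate 1 and 5.44 in replicate 2 (7.86 ± 3.41, SD, n = 2). Its mean stood at percentile 70.7 of the open coding promoters. The peak covered chr18:37806181-37806460 in replicate 2 and began 40 bp later in replicate 1, and its centre lay 70 bp and 90 bp before the start site in replicates 1 and 2. The site held 5 footprints, short protected stretches that mark bound protein, in replicate 1 and 7 in replicate 2. A further shared site lay inside the variable exon of Pcdhgc3 with 1.82 and 1.18.

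The other 4 C-type genes were much lower. Pcdhgc4 had 1.50 in replicate 1 and 0.949 in replicate 2 (1.22 ± 0.388, percentile 13.5). Pcdhac1 had 1.35 and 0.596 (0.975 ± 0.537), and Pcdhac2 had 1.05 and 0.635 (0.842 ± 0.293). Pcdhgc4 had the highest value of these 3 in each library, and Pcdhac1 and Pcdhac2 changed places between the libraries. In replicate 2 the rank of Pcdhgc4 rests on a short peak, chr18:37815361-37815396. There, 52 bases within 500 bp of its start sites had a deposited q-value, against 430 at Pcdhac1 and 593 at Pcdhac2. In replicate 1 the counts were 1197, 524 and 592. With the shorter peak lists, Pcdhac1 and Pcdhac2 kept a promoter peak in both libraries and Pcdhgc4 did not. Pcdhgc5 had 0.339 in replicate 1 and no peak in replicate 2. The promoters differed in where the peak sat: at Pcdhac1 the centre was 43 bp and 3 bp before the start site, and at Pcdhac2 it was 257 bp and 397 bp past it, inside the variable exon. Footprints in the promoter peaks numbered 10 in replicate 1 and 1 in replicate 2 at Pcdhgc4, and 2 and 3 at Pcdhac1.

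Among the Pcdhg variable genes, the open ones lay towards the C-type end of the cluster. Pcdhgb6 had 0.970 in replicate 1 and 0.687 in replicate 2 (0.829 ± 0.200). Pcdhgb7 had 0.788 and 0.641 (0.715 ± 0.104), and Pcdhga12, the last alternate gene of the cluster, had 0.710 and 0.438 (0.574 ± 0.192). Replicate 1 was the higher library at all 3. Of the 18 Pcdhga and Pcdhgb genes taken in chromosome order, the first 9 included 0 that were open in both libraries and 2 with a peak in one, and the last 9 included 3 and 2. The genes with a peak in replicate 2 alone were Pcdhga5 (0.314), Pcdhga7 (0.334), Pcdhgb5 (0.432) and Pcdhga11 (0.510). Pcdhga1, Pcdhga2, Pcdhga3, Pcdhga4, Pcdhga6, Pcdhga8, Pcdhga9 and Pcdhga10 had no promoter peak, and neither had Pcdhgb1, Pcdhgb2 and Pcdhgb4. Pcdhgb8, which GENCODE lists as a polymorphic pseudogene and which is therefore no member, had a shared site at its start with 1.45 and 0.969, above every Pcdhga and Pcdhgb member in both libraries.

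The Pcdhb genes, single-exon genes without constant exons, gave the lowest values. Pcdhb17 had 0.567 in replicate 1 and 0.380 in replicate 2 (0.473 ± 0.132). Pcdhb6 had 0.560 and 0.308 (0.434 ± 0.179). Pcdhb1, which stands apart from the other Pcdhb genes at the start of the cluster, had 0.306 and 0.308 (0.307 ± 0.00103) and was the only open member that was not lower in replicate 2. Pcdhb17 was the highest of the 3 in both libraries. Pcdhb11 (0.308) and Pcdhb19 (0.275) had a peak in replicate 2 alone. The 17 Pcdhb genes with no peak were Pcdhb2 to Pcdhb5, Pcdhb7 to Pcdhb10, Pcdhb12 to Pcdhb16, Pcdhb18 and Pcdhb20 to Pcdhb22.

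**Figure D2:**
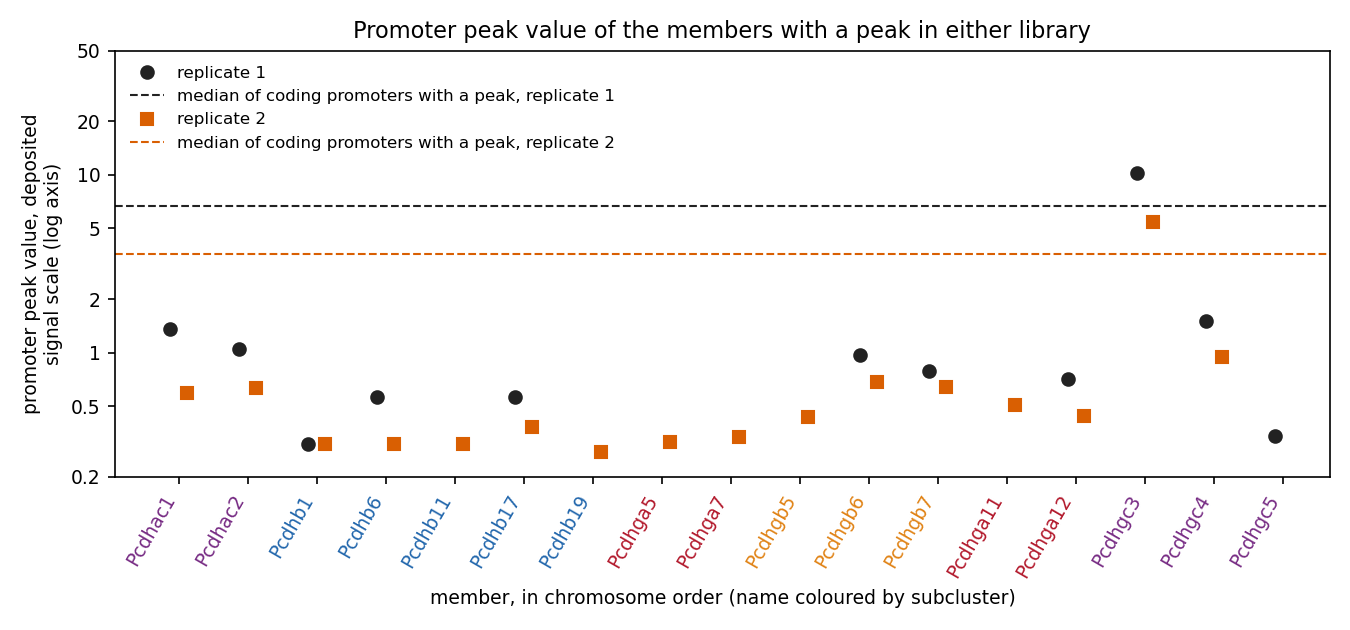
Promoter peak value on a log axis for the 17 members with a promoter peak in either library, in chromosome order, with a circle for replicate 1, a square for replicate 2 and dashed lines at the median of open coding promoters of each library. Pcdhgc3 alone lies above the dashed line of each library, and 7 members have a symbol for 1 library only.

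Except at Pcdhgc3, the values were low next to other open genes. The median over the 10 open members was 0.879 in replicate 1 and 0.615 in replicate 2, and 9 of 10 lay below the median open coding promoter of their library, in each library. Of the 10, 9 were lower in replicate 2, as were 13920 of 14394 open coding genes. On the log2 scale, relative to the median ratio of all open coding promoters (-0.89, replicate 2 over replicate 1), the members had a median ratio of 0.21 with an SD of 0.33 over members. They ranged from -0.30 at Pcdhac1 to 0.90 at Pcdhb1. Without centring the median was -0.68, and against promoters of like value (classes of 10% each) it was -0.12, so the members did not stand on a fixed side of the other genes.

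The literature gives 4 members that lack the conserved sequence element, Pcdhac2, Pcdhb1, Pcdhgc4 and Pcdhgc5. Of these, 3 were open in both libraries and 1 in one, where 65.6% of all coding genes were open in both. Of the other 53 members 7 were open in both libraries, 6 in one and 40 in neither. With 4 genes, of which 3 are C-type, this is a description.

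The deposited q-values list every base called below a false discovery rate of 0.05. They come from the same libraries as the peaks, so for the members without a peak they are a description, not separate support. All 12 alternate Pcdha genes had no listed base within 500 bp of a start site in either library. Of the 40 members without a promoter peak 0 had a listed base in both libraries, and 3 had one in a single library (7.5%). They were Pcdhb2 with 5 bases and Pcdhb8 with 2 bases in replicate 1, and Pcdhga9 with 39 bases in replicate 2. Of the 6732 other coding genes without a promoter peak in either library, 34 had listed bases in both (0.505%) and 177 in either (2.63%). The longest stretch of the whole region without a peak in either library was 260 kb (chr18:36830184-37089860). It held the start sites of all 12 alternate Pcdha genes and ended at the Pcdhac1 peak. It had 0 listed bases in either library as far as 500 bp before Pcdhac1.

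Promoters rich in CpG were open more often across the genome, and the members were open less often than other genes of like CpG content. The CpG ratio is the number of CpG sites over that given by base composition, here within 500 bp of the start site. Coding genes were divided into 5 equal classes by it. From the lowest class to the highest, 10.7%, 38.1%, 85.2%, 96.6% and 98.2% of the other coding genes were open. The members had 0 of 1, 1 of 14, 6 of 23, 3 of 18 and 0 of 1. Weighted by the classes of the 57 members, the other genes were open in 76.2% of cases, against 17.5% of the members. The alternate Pcdha genes had a median CpG ratio of 0.686, above that of the C-type genes (0.670), of Pcdhgb (0.650), Pcdhga (0.588) and Pcdhb (0.378). The alternate Pcdha genes thus had the highest median CpG ratio and no open promoter. Pcdhb had the lowest median ratio and a share of open promoters of 13.6%, above the 8.33% of Pcdhga. The share was 33.3% in Pcdhgb and 80% in the C-type genes. The order of these shares was not that of the median ratios, but it rests on few genes in each subcluster. In replicate 2 alone, 5 of 22 Pcdhb genes and 4 of 12 Pcdhga genes had a promoter peak, which reverses the order of these 2. In replicate 1 the counts were 3 and 1, and no alternate Pcdha gene had a peak in either library. The part of CpG content in these shares was not tested.

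**Figure D3:**
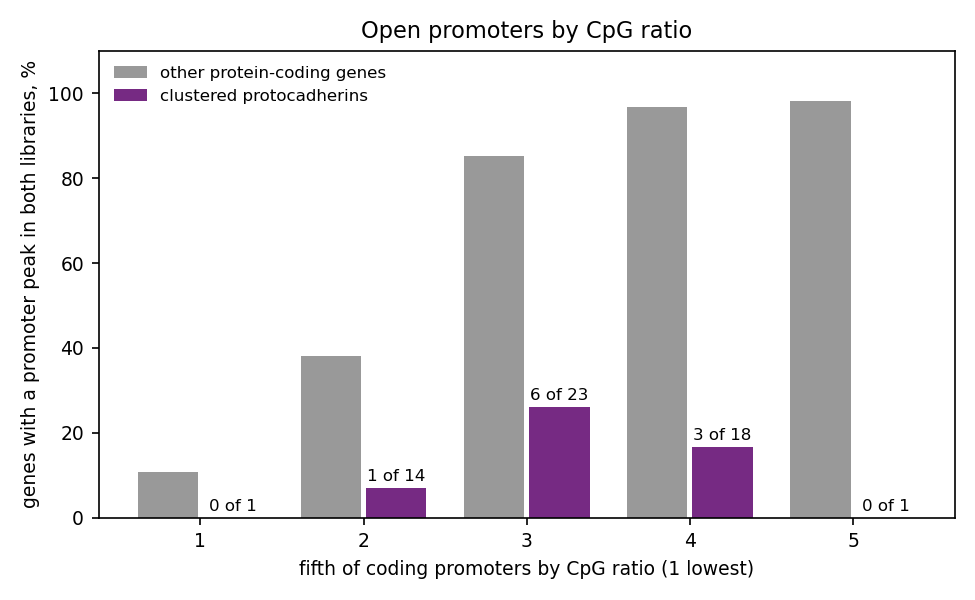
Share of genes with a promoter peak in both libraries, in percent, in 5 classes of promoter CpG ratio, for other protein-coding genes (grey) and the protocadherin members (purple, with counts). The grey bars climb from 10.7% to 98.2%, and the purple bars stay below the grey ones in every class.

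The family arose by tandem duplication, so the share of sequence that a short read can place was computed as well. Of the 32-base words within 500 bp of a start site, the median member had 98.5% that occur once in the genome, against 100% in other coding genes. The median was 77.9% in the alternate Pcdha genes (71.3% to 90.6%), 80.8% in Pcdhgb, 98.1% in Pcdhga and 100% in Pcdhb and the C-type genes. Of the 34 members with at least 95% unique words 7 were open (12 in either library), against 74.9% of 16742 other coding genes. Of the 23 members below that 3 were open (5 in either library), against 35.8% of 5139 other genes. Within the range of the alternate Pcdha genes, 47.5% of 1738 other genes were open, and none of the 12. The part of repeated sequence in the count of the alternate Pcdha genes was not tested beyond these values.

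Open sites, at promoters and elsewhere, were crowded at the end of the Pcdhg cluster. From 100 kb before the first member to 100 kb past the last, the libraries had 70 sites, of which 34 were shared, 19 were in replicate 1 alone and 17 in replicate 2 alone. Of the shared sites, 11 lay at member promoters and 23 elsewhere. This is 30.6 shared sites per Mb, against 28.9 over the genome and 27.3 over chromosome 18. The spread along the locus was uneven. There were 0 before and over the alternate Pcdha genes, 6 from Pcdhac1 to the Pcdha constant exons, 2 in the gap before Pcdhb1, 3 over the Pcdhb genes, all at promoters, and 2 in the gap before Pcdhga1. A further 4 lay over the Pcdhga and Pcdhgb genes and 7 in the 100 kb past the cluster. The 36.0 kb from Pcdhgc3 to the end of the Pcdhg constant exons alone held 10, or 278 per Mb, of which 3 lay at member promoters and 7 elsewhere.

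Most of the strongest sites, ranked by mean value and without the member promoters, lay in or beside other genes. The highest by mean, with 13.3 and 5.61 (9.47 ± 5.45), was the promoter of Diaph1 (chr18:37935361-37935720), an actin regulator that runs towards the Pcdhg cluster from its far side. Taf7, a single-exon gene for a subunit of the transcription factor TFIID between the Pcdhb and Pcdhg clusters, had 8.68 and 4.59 (6.63 ± 2.90) at its promoter. Slc25a2, a mitochondrial carrier gene beside Taf7, had no promoter peak, like the read-through genes Gm42416, Gm37013 and Gm37388 that span the clusters. Hdac3, a histone deacetylase gene whose body reaches into the region, has its start site outside it. Introns of Diaph1 held 3 of the 8 strongest sites, with 9.94 and 6.15 (chr18:37852181-37852400), 7.49 and 4.37 (chr18:37883561-37883760), and 4.70 and 3.12 (chr18:37880241-37880480). The first of these lay 10.4 kb past the end of the Pcdhg constant exons. Enhancers of the Pcdhb and Pcdhg genes are known downstream of the Pcdhg cluster, but no named element was matched to these sites.

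A strong site also stood alone between the Pcdha and Pcdhb clusters. It had 6.10 in replicate 1 and 3.74 in replicate 2 (4.92 ± 1.67) at chr18:37218281-37218460, was intergenic, and was higher than every member promoter except Pcdhgc3 in both libraries. A weak shared site (0.417 and 0.314) lay about 1 kb before it, and these 2 were the only sites of the gap. The other sites of the 8 strongest were in introns between the Pcdhgc5 variable exon and the last Pcdhg constant exon, with 4.83 and 2.11 (chr18:37835321-37835880) and 3.15 and 1.85 (chr18:37822541-37822760). Past the Pcdhac2 variable exon, inside the introns of the Pcdha cluster, shared sites lay near the starts of the noncoding genes Gm10544 (1.57 and 1.13) and Gm38097 (1.47 and 1.06), both above the promoter values of Pcdhac1 and Pcdhac2 in each library.

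The animals differed in which weak sites were called, and the side changed along the Pcdhg cluster. From Pcdhgc3 to the end of the constant exons 14 sites were in replicate 1 alone and 0 in replicate 2 alone. Over the Pcdhga and Pcdhgb genes 0 were in replicate 1 alone and 7 in replicate 2 alone, of which 6 lay at member promoters, and in the 100 kb past the cluster 1 and 8. Over the genome 26349 sites were in replicate 1 alone and 32068 in replicate 2 alone, beside 78709 shared. Bases with a listed q-value numbered 10750 in replicate 1 and 4393 in replicate 2 from Pcdhgc3 to the constant exons, and 1083 and 2565 over the Pcdhga and Pcdhgb genes, against 36376526 and 40246600 over the genome. At Pcdhgc4 they numbered 1197 and 52 within 500 bp of its start sites. The sites of 1 library were weak, with a median of 0.511 for the 14 and 0.419 for the 7. Their median GC content was 54.7% for the 14, 53.3% for the 7 and 46.3% for the 8 past the cluster. With the shorter peak lists, an alternative chosen after these counts were seen, the 14 became 16 and the 7 became 3. With 1 library per animal, a difference between animals and one between libraries cannot be told apart, and the part of GC content was not tested.

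**Figure D4:**
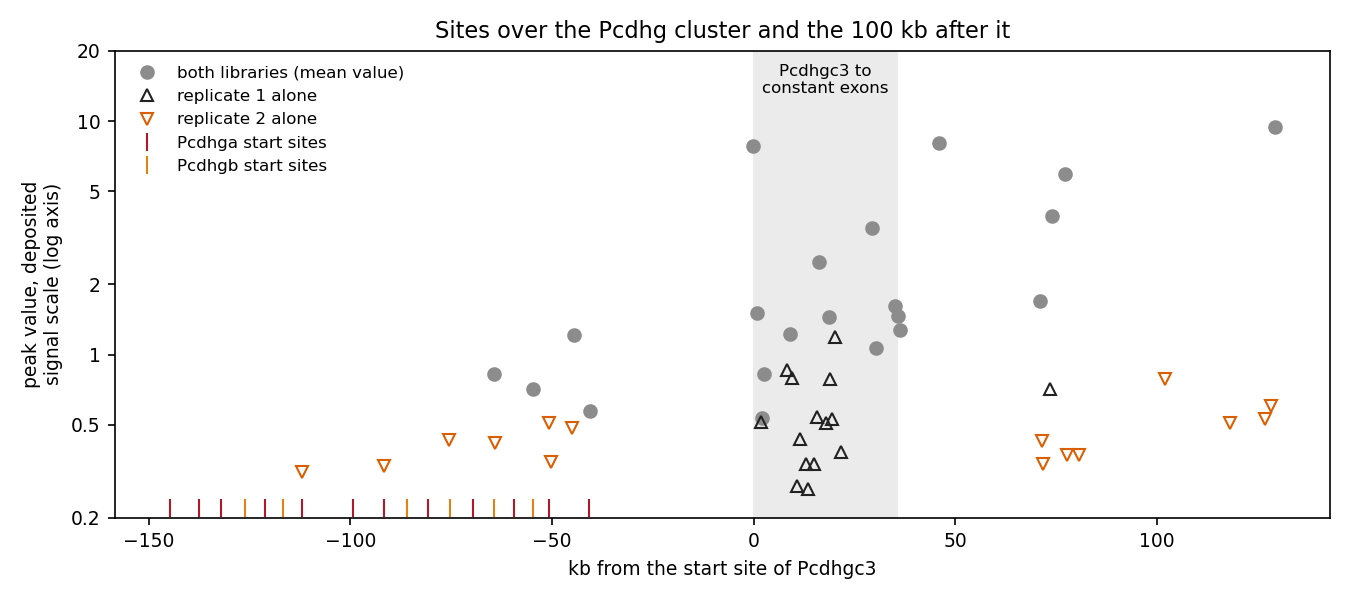
Peak value on a log axis against the distance from the Pcdhgc3 start site in kb, with filled circles for the mean of shared sites, upward triangles for sites of replicate 1 alone, downward triangles for sites of replicate 2 alone and ticks at the Pcdhga and Pcdhgb start sites. The shaded stretch from Pcdhgc3 to the constant exons holds 14 upward triangles and no downward one, and the Pcdhga and Pcdhgb genes to its left hold 7 downward triangles and no upward one.

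Matches to the CTCF motif were found at sites away from the member promoters. A core of 12 letters was searched on both strands with at most 1 mismatch, and a match is a description of sequence, not of binding. None of the 11 shared sites at member promoters held a match, and 6 of the other 23 did. The 6 were the strong site between the Pcdha and Pcdhb clusters and the weak one beside it, a site at the last Pcdhg exon (2.12 and 1.11), the Diaph1 introns at chr18:37852181-37852400 and chr18:37883561-37883760, and the Diaph1 promoter. All 6 had the match on the minus strand, opposite to the direction of the members, while matches in peaks elsewhere in replicate 1 were on the plus strand in 49.5% of 19019 cases. At the weak site the match overlapped a footprint in replicate 2 alone, while the other sites had a match with a footprint in both libraries. Matches within 150 bp of the peak centres of the region were counted as well, which is not a count of these sites. Of them, 6 of 6 in replicate 1 and 6 of 7 in replicate 2 overlapped a footprint, against 76.4% and 75.4% elsewhere. In these windows 4 of 22 shared peaks of replicate 1 that lay at no coding promoter of the region (18.2%) held a match, against 23.3% of 61628 elsewhere. The count of matches was thus near the background, and what the sites share is the strand.

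The motif sat inside the variable exons of the alternate Pcdha genes, away from any peak. Within 500 bp of the start site 3 members had a match (5.26%, against 11.9% of other coding genes). They were Pcdha5, Pcdhb8 and Pcdhgb1, and none was exact. With 1000 bp to each side 13 members had one (22.8%, against 20.6%), and 6 had an exact match (10.5%, against 1.66%). All 6 exact matches were in alternate Pcdha genes, namely Pcdha1, Pcdha4, Pcdha6, Pcdha7, Pcdha8 and Pcdha12. In all, 9 of 12 alternate Pcdha genes had a match, each on the plus strand and 461 to 586 bp past the start site. This is opposite to the strand of the matches at the distant sites. It did not hold for all members with a match: Pcdhb8 had it on the plus strand, but Pcdhac1, Pcdhgb1 and Pcdhgb7 on the minus strand, like the distant sites. None of the 9 matches in alternate Pcdha genes overlapped a footprint in either library. They lay in the stretch with no peak and no listed base, so this is no measure of CTCF binding there. The conserved element upstream of the start sites was not found by this core at 1 mismatch, and with 2 mismatches 39 of 57 members (68.4%) had a match, near the 67.7% of other coding genes. For REST, a repressor of neuronal genes, a core of 16 letters was searched with at most 1 mismatch. It matched none of the 14 shared promoter peaks and 22 other shared peaks of the region in replicate 1, against 1.57% and 2.20% elsewhere. With shares that low and so few peaks, finding none is no sign of a lack of matches. Of the 20 peaks that replicate 1 had alone in the region, 3 held a REST match (15%), against 1.38% of 26683 such peaks elsewhere. These 3 peaks were weak. One lay in the Pcdhac1 variable exon (0.306, chr18:37091988-37092120), one in introns of the Pcdha cluster (0.247, chr18:37180389-37180621) and one in introns of the Pcdhg cluster (0.384, chr18:37827975-37828110). The count of 3 was looked up after the shared peaks had been described, and replicate 2 had no peak at any of them.

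The genes that act on the clusters were open nearly throughout. All 11 genes of CTCF and cohesin had a promoter peak in both libraries, led by Stag1 (16.5 ± 8.46), Smc3 (14.1 ± 7.16) and Wapl (9.87 ± 5.29), all parts or partners of the cohesin ring. All 11 silencing and DNA methylation genes were open, with Dnmt1 (9.06 ± 4.64), Trim28 (8.87 ± 2.90) and Smchd1 (8.12 ± 4.36) highest. The de novo methyltransferase Dnmt3b was the lowest of that list at 2.44 ± 1.21. All 8 genes of REST and other repressors were open, led by Rcor1 (13.9 ± 7.38), Hdac1 (12.8 ± 7.40) and Ehmt1 (9.18 ± 6.18). All 12 partners and processing enzymes of the proteins were open too, with Adam10, which sheds their outer part, at 14.6 ± 9.56, Wasf1 at 9.50 ± 4.52 and Fyn at 8.77 ± 4.39. Against the 65.6% of all coding genes, these lists were fully open. Their CpG ratio was not compared with that of other genes. In CpG classes 4 and 5, 96.6% and 98.2% of other coding genes were open, so full lists are a description only.

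Protocadherins and cadherins outside the clusters were open in most cases, where 65.6% of all protein-coding genes were. Of 12 non-clustered protocadherins, which have ordinary promoters of their own, 11 were open, led by Pcdh10 (6.52 ± 2.52), Pcdh17 (6.47 ± 2.86) and Pcdh9 (4.99 ± 2.25), and Pcdh12 had no peak. All 7 classical cadherins were open, led by Cdh2 (3.45 ± 1.97), Cdh1 (2.16 ± 0.778) and Cdh4 (1.83 ± 0.640). The median value was 2.23 for the open non-clustered protocadherins and 1.52 for the classical cadherins, against 0.772 for the 10 open members of the clusters.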

How the data were processed

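DNase-seq of 2 ovary libraries on mm10 was used, per the labels. For each library the authors deposited 2 peak lists with a signal value of unknown scaling (100% of values were whole multiples of 1 step within 0.05 of a step, so depth is known only up to that unit), footprints with a score of 0.01 in every line, and q-values per base, listed up to 0.0499. The aligner, callers and versions were not given in the sources used here. The lists with more rows (109169 and 114462 peaks) were the main input, and the shorter ones (66549 and 68552) an alternative.

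Genes and start sites came from GENCODE on GRCm38, the same build. One of a pair of genes that GENCODE names Pcdha11 is Pcdha10 in RefSeq and is so named here. A gene's value was its highest peak within 500 bp of a start site. Sites of both libraries were merged on an overlap of 1 base or more. Motifs, CpG ratio and unique 32-base words were computed with Python 3.11.15, numpy 2.4.6, pandas 2.3.3 and numba 0.67.0. Promoter calls, shared peaks and the motif search were checked on simulated data, and CpG ratio and unique words were not. With 1 group of 2 libraries nothing was tested, and values are mean ± SD. Each library was taken as 1 animal, since the labels number the females differently, and the donor entry they share was read as the strain.

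The members and lists were chosen with earlier results of these data known. Named were every member, the 8 strongest shared sites outside member promoters, the other coding genes of the region, and of each list the 3 open genes of highest mean value and up to 3 without a peak. Other names (Pcdhgb8's site, Dnmt3b, Gm10544, Gm38097, Insl3, the weaker sites with a CTCF or REST match) were chosen after their values were seen. One item of the marker lists is not reported here.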

Additional observations from a re-analysis of the deposited data

How the results depend on the processing

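The open members numbered 3 with the shorter peak lists and 3 with peaks above the median value, where 61.7% and 60.1% of all coding genes were open, and 11 to 16 when 1 library was left out. The median value over open members was 0.975 with the shorter lists. Shared sites outside member promoters numbered 15 when 50% of both peaks had to overlap and 13 with the shorter lists, and 32 to 37 with 1 library left out. Members with a CTCF match numbered 0 with exact matches, 39 with 2 mismatches, 0 within 250 bp and 13 within 1000 bp. The library ratio of the open members was 0.21 as given, -0.68 uncentred, which follows from the lower values of replicate 2, and -0.12 relative to promoters of like value. The alternatives not listed here kept the main results within 1.5 times, or within 1 SD for medians and ratios, and of the alternatives to counts by subcluster, list or region 11 moved and 79 did not. No paired analysis was possible because there was 1 group. Weak peaks limit these counts: 9 of 10 open members lay below the median open promoter, so a promoter without a peak was not shown to be closed.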
